A study of Arabidopsis thaliana with 8 samples.

Results

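UDP-glycosyltransferases (UGTs), cytochrome P450 monooxygenases (CYPs) and glutathione S-transferases (GSTs) were followed across 4 genotypes of dark-grown Arabidopsis seedlings. Members were the probe sets of the Affymetrix ATH1 array that named exactly 1 gene whose symbol began with UGT, with GST, or with CYP followed by a family number and a letter. The rule found 83 probe sets for 83 genes (47 UGT, 23 CYP and 13 GST) among the 22746 probe sets without controls. The genotypes were the phyA-211 mutant of phytochrome A (phyA), the phyB-9 mutant of phytochrome B (phyB), the phyA-211 phyB-9 double mutant (phyAphyB) and the wild type (WT), all in the Columbia accession, with 2 arrays each. Each locus was represented by 1 mutant allele. All seedlings shared the same history, chilling of the seeds for 5 days at 6 degrees C, 1 h of white light and then 3 days of darkness at 22 degrees C. RNA came from seedlings with no tissue separated, so fewer cells of a type and less RNA per cell cannot be told apart. Separate cultures for the 2 arrays of a genotype are not stated in the labels, so p-values reflect no more than array-to-array spread, part or all of which may be technical.

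UGTs transfer a sugar from a UDP-sugar to small molecules such as phenylpropanoids, flavonoids and hormones, which changes their solubility, transport and activity. CYPs insert oxygen into such molecules, and GSTs of plants join glutathione to reactive compounds or carry them as ligands. In the etiolated seedling these enzymes take part in lignin precursor, flavonoid, glucosinolate and hormone metabolism, and phytochromes, receptors for red and far-red light, end etiolated growth when light arrives.

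The set covered the 3 families unevenly. The TAIR10.1 gene table of RefSeq holds 341 genes whose symbols meet the rule (236 CYP, 58 UGT and 47 GST). Most genes with such a UGT symbol and few with such a CYP symbol were therefore seen. Genes listed under other names were not counted. Of the CYP probe sets, 19 belonged to CYP71B, and CYP51, CYP78, CYP79 and CYP84 had 1 each. Tau-class enzymes made up 11 of the 13 GSTs. UGTs were spread over 11 families, led by UGT71 with 9 probe sets, UGT76 with 8 and UGT73 with 7. None of the enzymes written down for brassinosteroid, gibberellin, jasmonate or carotenoid metabolism had a probe set that met the rule. Among the 83 genes, CYP71B27 and CYP51G2, a homologue of the sterol 14-demethylase, are annotated as transcribed pseudogenes.

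Deposited intensities carried a common scaling, with a 2% trimmed mean of 2500.2 to 2500.3 on the 8 arrays. The ratio of 3' to 5' control probe sets for GAPDH, which is high where RNA is shortened or labelling stops early, was 7.87 on phyB replicate 2 and 16.7 on WT replicate 1, against 1.31 to 2.31 on the other 6 arrays. PORB, an enzyme of chlorophyll synthesis, had intensities of 34265 to 63901 in the mutants, against 58866 and 43229 in WT. It was the only one of 7 etiolated-seedling markers with a named probe set. EXPA7, a root-hair expansin, stood at 561 to 950 in the mutants, against 99 and 483 in WT, and of 9 root markers only 3 could be read. RCA, the Rubisco activase and the only one of 8 photosynthetic markers with a named probe set, stood at 18156 to 31551 in the mutants, against 9664 and 19902 in WT, so WT replicate 1 was lowest there as well. The part of these markers in the results below was not tested. The summed intensity of those 3 root markers was 70988 to 122315 in the mutants, against 112710 and 68105 in WT. Most of that sum was PYK10, with 68874 to 120174 in the mutants, against 111995 and 66582 in WT. EXPA18 stood at 767 to 1449 in the mutants, against 616 and 1040 in WT. WT replicate 1 was thus lowest for EXPA7 and EXPA18 but not for PYK10. No flower or pollen marker was measured. The annotation table used here names no probe set for PHYA or PHYB, and the genotypes were not checked on the mutated genes here.

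Tests used log2(intensity + 39), where 39 is a pseudocount that makes changes of dim transcripts look smaller. After the dimmest 40% by mean log2 value were set aside, the tests kept 44 of the 83 members (26 UGT, 8 CYP and 10 GST) among 13647 probe sets. The filter took the mean over all arrays and not the level in 1 genotype. Of the 39 members left out, 10 stood above the pseudocount on all 8 arrays, 28 on 1 to 7 arrays, and CYP79A2, which makes phenylacetaldoxime from phenylalanine, on none. Other members too dim for the test included UGT71B6, an abscisic acid glucosyltransferase, UGT84B1, an auxin glucosyltransferase, and CYP78A9, a regulator of fruit and seed size. The brightest member left out was UGT73B5, with 728 on phyAphyB replicate 2.

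No member was called in any mutant against WT. At an adjusted p under 0.05 by limma (Benjamini-Hochberg over 13647 probe sets), the share called over the whole array was 0.0147% for phyA, 0% for phyB and 0.022% for phyAphyB. The smallest adjusted p of a member by limma was 0.761 in phyA, 0.744 in phyB and 0.997 in phyAphyB. At an unadjusted p under 0.05, 3 of 44 members passed in phyA (6.37% of all probe sets), 4 in phyB (5.93%) and 4 in phyAphyB (3.57%), so each count stood at most 3 members above that share of the 44. Past 1 log2 unit in either direction were 3 of 44 members in phyA (6.63% of all probe sets), 5 in phyB (5.96%) and 5 in phyAphyB (4.53%). These 3 comparisons share the WT arrays, so they are not independent of each other. All changes below are differences in log2(intensity + 39), mutant minus WT, with the standard error of the limma fit (n = 2 arrays per genotype), and none passed the adjusted threshold.

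By direction alone, 25 of the 44 members had a positive difference in phyA, 25 in phyB and 28 in phyAphyB. Over all probe sets tested the positive share was 49%, 44.5% and 53.3% in that order. The median difference of the members was 0.11 in phyA, 0.09 in phyB and 0.24 in phyAphyB, beside -0.01, -0.06 and 0.04 over all probe sets. The families differed in this description. Of 26 UGTs, 19 were positive in phyA, 17 in phyB and 20 in phyAphyB, with medians of 0.34, 0.26 and 0.43. Of 8 CYPs, 2, 3 and 3 were positive, with medians of -0.27, -0.28 and -0.26. Of 10 GSTs, 4, 5 and 5 were positive, with medians of -0.17, -0.07 and -0.01. The UGT and GST counts rested in part on WT replicate 1, the array with the highest GAPDH ratio. Without it, 14 of 26 UGTs were positive in phyA, 13 in phyB and 15 in phyAphyB, with medians of 0.12, -0.02 and 0.06, and 3, 3 and 2 of 10 GSTs were positive, with medians of -0.33, -0.36 and -0.19. Without phyB replicate 1 the CYP median in phyB was 0.04, with 4 of 8 positive.

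**Figure D1:**
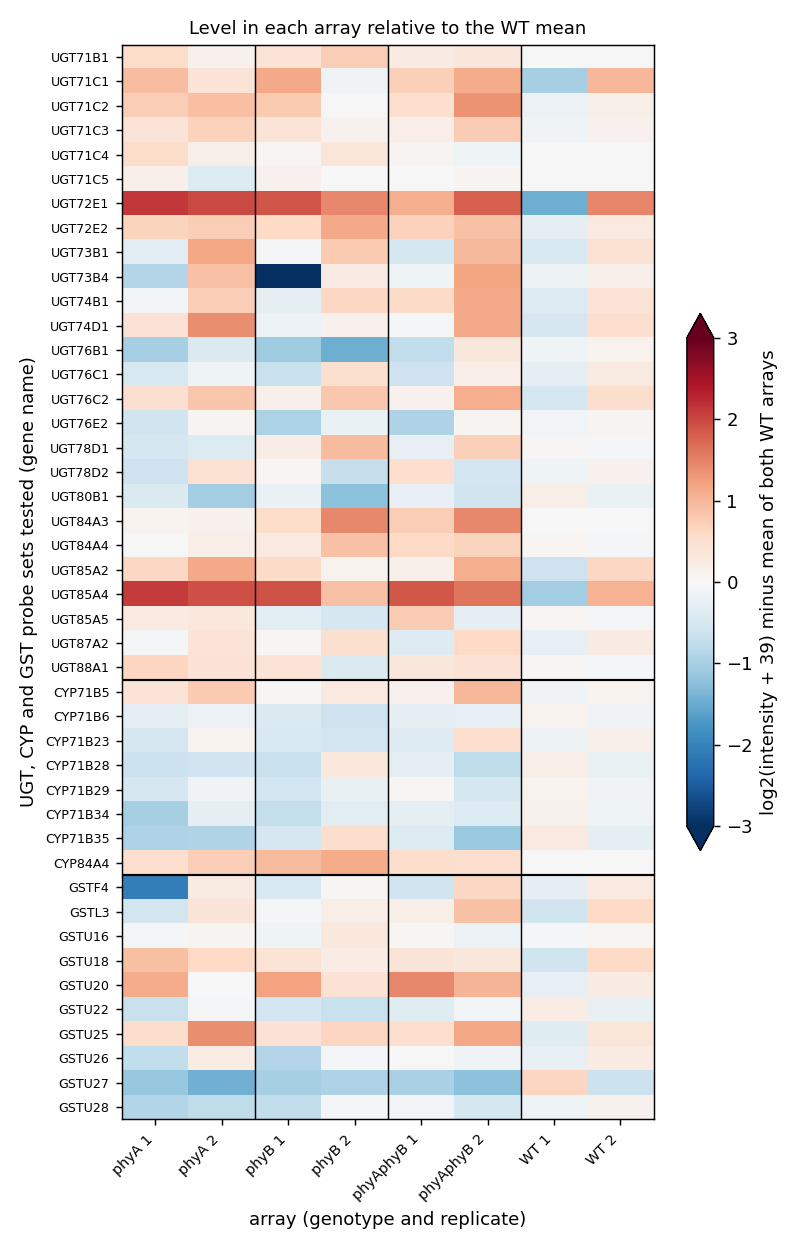
Level of the 44 tested UGT, CYP and GST probe sets (rows) on each of the 8 arrays (columns, the 3 mutants left of WT), as log2(intensity + 39) minus the mean of both WT arrays. UGT72E1 and UGT85A4 stand out above the WT mean in all 6 mutant arrays, and in both rows WT replicate 1 is far below WT replicate 2.

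**Figure D2:**
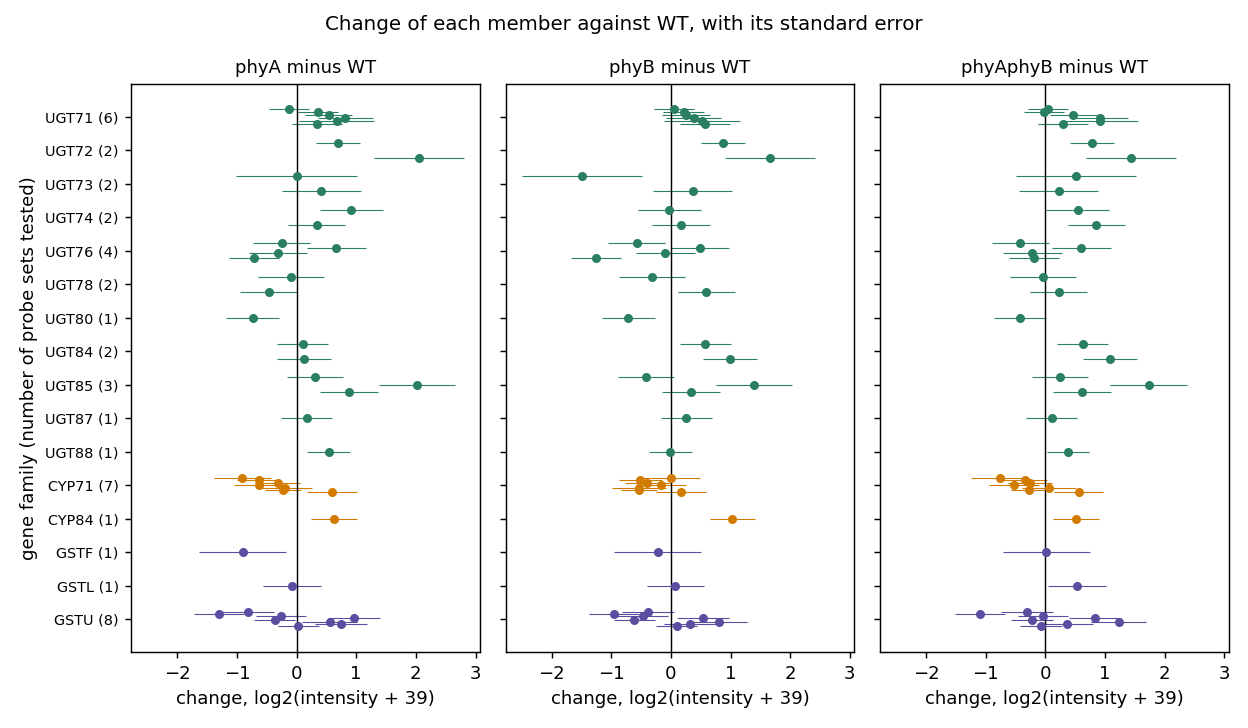
Difference of each tested member from WT in log2(intensity + 39), by gene family, for phyA, phyB and phyAphyB; points are limma estimates from 2 arrays per genotype, bars are 1 standard error, and green, orange and purple mark UGTs, CYPs and GSTs. Most bars cross or come near 0, and no point passed the adjusted threshold.

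All 5 tested enzymes of a phenylpropanoid list, written with earlier results of these data known, had a positive difference in all 3 mutants. Phenylpropanoids are the phenylalanine-derived compounds that feed lignin, sinapate esters and flavonoids. Of 14 enzymes of this role that were written down, 7 had a probe set and 5 were bright enough to test, UGT72E1, UGT72E2, UGT84A3, UGT84A4 and CYP84A4. Their median difference was 0.62 in phyA, 1.00 in phyB and 0.79 in phyAphyB, and none was called. Without WT replicate 1 the positive counts were 5, 5 and 4 of 5, with medians of 0.41, 0.64 and 0.54. All but CYP84A4 are UGTs, of which 19, 17 and 20 of 26 were positive in phyA, phyB and phyAphyB. Over all probe sets tested the positive share was 49%, 44.5% and 53.3%. UGT84A4 in phyA had a difference of only 0.10. Of 2 tested flavonoid UGTs, kept on another list, 0, 1 and 1 were positive. The shared direction is a description and was not tested.

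UGT72E1 (AT3G50740) glucosylates coniferyl and sinapyl aldehyde, intermediates on the way to lignin. Its intensity was 4723 and 4299 in phyA, 3995 and 2931 in phyB, 2296 and 3773 in phyAphyB, and 357 and 2998 in WT. WT replicate 1 was lower than every other array, while WT replicate 2 lay inside the range of the mutants, so both phyB and phyAphyB overlapped WT and phyA did not. The difference was 2.05 (SE 0.76) in phyA, 1.66 (SE 0.76) in phyB and 1.44 (SE 0.76) in phyAphyB. Without WT replicate 1 it was 0.58 in phyA, 0.19 in phyB and -0.026 in phyAphyB. Without WT replicate 2, when WT replicate 1 alone stood for WT, it was 3.52 in phyA, 3.13 in phyB and 2.91 in phyAphyB. Over all settings tried the adjusted p by limma reached 1.00 in phyA, 0.998 in phyB and 1.00 in phyAphyB.

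UGT72E2 (AT5G66690) glucosylates coniferyl and sinapyl alcohol, the monolignols themselves. It stood at 1841 and 1918 in phyA, 1757 and 2578 in phyB, 1871 and 2137 in phyAphyB, and 932 and 1401 in WT. All 6 mutant arrays were higher than both WT arrays. The difference was 0.70 (SE 0.37) in phyA, 0.87 (SE 0.37) in phyB and 0.79 (SE 0.37) in phyAphyB. Without WT replicate 1 it was 0.41, 0.59 and 0.50 in the same order, and without both arrays of a high GAPDH ratio it was 0.32 in phyB. Its close relative UGT72E3, also a monolignol glucosyltransferase, was too dim to test.

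UGT84A3 (AT4G15490) and UGT84A4 (AT4G15500) make glucose esters of hydroxycinnamic acids, and their genes are neighbours in the TAIR10.1 gene table. UGT84A3 stood at 495 and 502 in phyA, 685 and 1306 in phyB, 785 and 1304 in phyAphyB, and 452 and 460 in WT. The phyA arrays were close to WT, and the 4 arrays carrying phyB-9 were all higher than the 4 arrays without it. The difference was 1.00 (SE 0.45) in phyB and 1.09 (SE 0.45) in phyAphyB. UGT84A4 followed the same order, with 365 and 426 in phyA, 455 and 699 in phyB, 569 and 601 in phyAphyB, and 383 and 348 in WT. Across the 8 arrays the log2 values of this pair had a Pearson correlation of 0.95, given as a description of arrays that share scaling and handling. Cross-hybridisation between such close relatives was not tested, so the split between them is uncertain.

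CYP84A4 (AT5G04330) is the relative of ferulate 5-hydroxylase that leads to arabidopyrones. It stood at 631 and 752 in phyA, 869 and 989 in phyB, 647 and 632 in phyAphyB, and 438 and 429 in WT. Every mutant array was higher than both WT arrays, and the phyB arrays were the highest. The difference was 0.62 (SE 0.38) in phyA, 1.03 (SE 0.38) in phyB and 0.52 (SE 0.38) in phyAphyB. Of 23 other enzymes of the phenylpropanoid pathway that were written down, only HCT, a hydroxycinnamoyltransferase of the lignin route, could be tested. HCT had 21943 and 15523 in phyA, 28840 and 13923 in phyB, 22826 and 18899 in phyAphyB, and 17865 and 17017 in WT, with the groups overlapping in phyA and phyB.

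**Figure D3:**
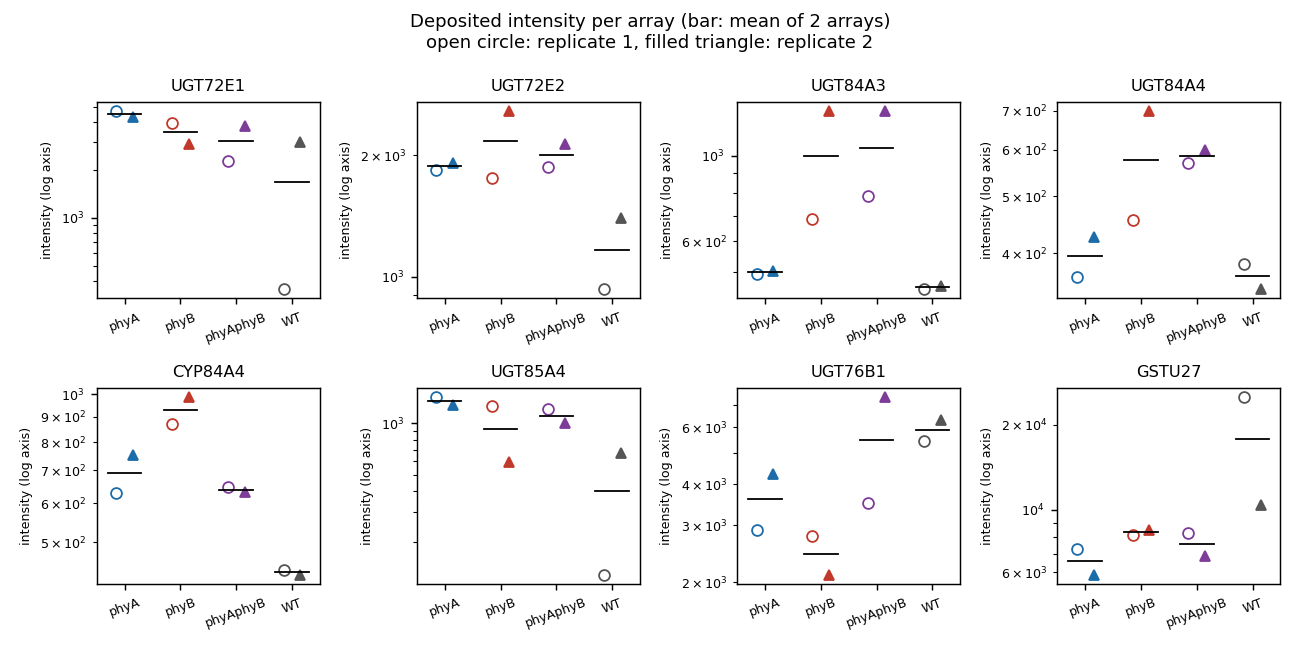
Deposited intensity (log axis) on each array for 8 members, with the 3 mutants left of WT; open circles are replicate 1, filled triangles replicate 2 and bars the mean of both. UGT72E2, UGT84A3 and CYP84A4 have all 6 mutant arrays above both WT arrays, GSTU27 has all 6 below, and UGT72E1 and UGT85A4 have 1 WT array far below the other.

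Among the other UGTs, UGT85A4 (AT1G78270) had the smallest p of any member in a mutant against WT. Its intensity was 1434 and 1280 in phyA, 1259 and 592 in phyB, 1213 and 1010 in phyAphyB, and 129 and 667 in WT. As with UGT72E1, WT replicate 1 was much lower than WT replicate 2, and phyB overlapped WT. The difference was 2.02 (SE 0.64) in phyA, 1.39 (SE 0.64) in phyB and 1.73 (SE 0.64) in phyAphyB. Without WT replicate 1 it was 0.98 in phyA, 0.36 in phyB and 0.70 in phyAphyB. Without WT replicate 2, when WT replicate 1 alone stood for WT, it was 3.05 in phyA. Its log2 values went most closely with those of UGT72E1 (Pearson correlation 0.93), GSTU18 (0.89) and UGT71C1 (0.86) over the 8 arrays. These partners also had their lowest intensity on WT replicate 1, with 357, 677 and 723 in that order. Partners here and below were picked as the closest of all tested members, so their correlations are descriptions only.

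UGT85A2 and UGT71C2 were each among the 4 UGTs with the smallest p in 1 mutant. UGT85A2 (AT1G22360) stood at 4703 and 6814 in phyA, 4585 and 3273 in phyB, 3385 and 6538 in phyAphyB, and 1983 and 4720 in WT. UGT71C2 (AT2G29740) stood at 835 and 932 in phyA, 858 and 480 in phyB, 704 and 1282 in phyAphyB, and 420 and 555 in WT. UGT85A2 overlapped WT in all 3 mutants, and its phyA difference was 0.88 (SE 0.49), or 0.26 once WT replicate 1 was left out. UGT71C2 overlapped WT in phyB only, and its phyAphyB difference was 0.92 (SE 0.46).

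UGT76B1 (AT3G11340), which glucosylates isoleucic acid, salicylate and N-hydroxypipecolate in defence signalling, had the smallest p of any member in phyB. It stood at 2904 and 4301 in phyA, 2773 and 2111 in phyB, 3513 and 7441 in phyAphyB, and 5425 and 6313 in WT. Both single mutants were lower than both WT arrays, and the double mutant spanned them. The phyB difference was -1.26 (SE 0.42). Over the 8 arrays its log2 values went most closely with those of CYP71B23 (0.92), GSTU22 (0.82) and CYP71B6 (0.76). The other salicylate glucosyltransferase with a probe set, UGT74F1, was too dim to test.

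Hormone-conjugating UGTs showed no common direction. UGT76C1 and UGT76C2, the cytokinin N-glucosyltransferases, are neighbours. UGT76C1 stood at 929 and 1200 in phyA, 814 and 1873 in phyB, 841 and 1520 in phyAphyB, and 1090 and 1602 in WT. UGT76C2 stood at 1648 and 2070 in phyA, 1280 and 2053 in phyB, 1261 and 2479 in phyAphyB, and 780 and 1683 in WT. In both genes replicate 2 exceeded replicate 1 in all 4 genotypes, and every mutant overlapped WT. UGT74D1, which glucosylates auxins, had 1704 and 3337 in phyA, 1093 and 1368 in phyB, 1196 and 2786 in phyAphyB, and 866 and 1782 in WT, with every mutant overlapping WT. UGT71C5, which makes the glucose ester of abscisic acid, had 4272 and 2872 in phyA, 4168 and 3759 in phyB, 3881 and 4030 in phyAphyB, and 3830 and 3806 in WT, so that only the phyAphyB arrays lay clear of WT, and by little.

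Both flavonoid UGTs bright enough to test lacked a common direction over the mutants. UGT78D1 (AT1G30530), the flavonol 3-O-rhamnosyltransferase, stood at 332 and 367 in phyA, 587 and 1004 in phyB, 411 and 834 in phyAphyB, and 507 and 487 in WT. Its phyA arrays were lower than WT, its phyB arrays higher, and phyAphyB overlapped WT. UGT78D2, the flavonoid 3-O-glucosyltransferase, stood at 330 and 744 in phyA, 552 and 315 in phyB, 765 and 347 in phyAphyB, and 482 and 588 in WT, so each mutant overlapped WT. The third enzyme of this group, the flavonol arabinosyltransferase UGT78D3, was too dim to test.

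The glucosinolate enzyme UGT74B1, which adds glucose to thiohydroximates, stood at 1216 and 2176 in phyA, 1058 and 1975 in phyB, 1916 and 2879 in phyAphyB, and 954 and 1714 in WT. Both phyAphyB arrays were higher than WT, and the single mutants overlapped it. Of 25 enzymes written down for glucosinolates and camalexin, only UGT74B1 and the tau-class GSTU20 could be tested, and both had a positive difference in all 3 mutants. That direction turned in phyA and phyB for UGT74B1 without WT replicate 1 (-0.072 and -0.24), and in phyA for GSTU20 without phyA replicate 1 (-0.0048). For UGT74B1 it also turned in phyA without phyA replicate 2, and in phyB without phyB replicate 2 (-0.27). UGT80B1, a sterol glucosyltransferase of the seed coat, stood at 1812 and 1193 in phyA, 2163 and 1033 in phyB, 2084 and 1622 in phyAphyB, and 2852 and 2156 in WT. Its phyA and phyAphyB arrays were lower than both WT arrays, while phyB replicate 1 lay just inside the WT range.

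Of the 7 tested CYP71B members, 1 had a positive difference in phyA, 2 in phyB and 2 in phyAphyB. CYP71B6 (AT2G24180), which oxidises indole-3-acetonitrile, stood at 6570 and 7114 in phyA, 5913 and 5170 in phyB, 6519 and 6734 in phyAphyB, and 8597 and 7480 in WT. All 6 mutant arrays were lower than both WT arrays, and the phyB difference was -0.53 (SE 0.30). CYP71B34 (AT3G26300) showed the same order, with 2592 and 4364 in phyA, 3180 and 4226 in phyB, 4330 and 3963 in phyAphyB, and 5750 and 4777 in WT. Its neighbour CYP71B35 (AT3G26310) stood at 528 and 541 in phyA, 719 and 1503 in phyB, 777 and 460 in phyAphyB, and 1289 and 834 in WT. There phyA and phyAphyB were lower than both WT arrays, with differences of -0.91 (SE 0.48) and -0.75 (SE 0.48), and phyB replicate 2 was the highest array.

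Other CYP71B members overlapped WT in at least 1 mutant. CYP71B28 stood at 1293 and 1334 in phyA, 1283 and 2575 in phyB, 1674 and 1198 in phyAphyB, and 2375 and 1776 in WT. Its phyA and phyAphyB arrays were lower than WT, and phyB covered the WT range. CYP71B5 stood at 1146 and 1501 in phyA, 886 and 1064 in phyB, 939 and 1751 in phyAphyB, and 791 and 930 in WT. It was the CYP71B member with phyA and phyAphyB arrays higher than both WT arrays.

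GSTU27 (AT3G43800), a tau-class GST, had the smallest p among GSTs in phyA. It stood at 7265 and 5892 in phyA, 8115 and 8509 in phyB, 8253 and 6868 in phyAphyB, and 25057 and 10372 in WT. Every mutant array was lower than both WT arrays, and the WT arrays differed more from each other than any pair of mutant arrays did. The difference was -1.30 (SE 0.42) in phyA, -0.95 (SE 0.42) in phyB and -1.09 (SE 0.42) in phyAphyB. Without WT replicate 1 it was -0.66 in phyA, -0.32 in phyB and -0.46 in phyAphyB. Members whose log2 values went most closely with it were UGT80B1 (Pearson correlation 0.67), CYP71B28 (0.67) and CYP71B35 (0.66).

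GSTU20 (AT1G78370), also called FIP1, binds the jasmonate-conjugating enzyme FIN219/JAR1 of far-red light signalling. Its intensity was 3236 and 1471 in phyA, 3432 and 2004 in phyB, 4077 and 3056 in phyAphyB, and 1244 and 1750 in WT. The phyB and phyAphyB arrays were higher than both WT arrays, and phyA replicate 2 lay between them. The difference was 0.81 (SE 0.46) in phyB and 1.24 (SE 0.46) in phyAphyB. GSTU25 (AT1G17180), a detoxifying enzyme of trinitrotoluene, stood at 2535 and 4681 in phyA, 2366 and 2755 in phyB, 2484 and 3995 in phyAphyB, and 1355 and 2266 in WT, with all 6 mutant arrays higher than WT. Its difference was 0.96 (SE 0.43) in phyA and 0.83 (SE 0.43) in phyAphyB.

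The remaining GSTs went in different directions. GSTU22 stood at 4448 and 6740 in phyA, 4767 and 4442 in phyB, 5450 and 6723 in phyAphyB, and 8196 and 6095 in WT. Its phyB arrays lay below WT, with a difference of -0.61 (SE 0.35), and phyA and phyAphyB overlapped WT. GSTU18 stood at 1990 and 1607 in phyA, 1400 and 1239 in phyB, 1383 and 1326 in phyAphyB, and 677 and 1611 in WT, again with WT replicate 1 lowest. Of 24 redox and glutathione partners that were written down, only GR1 and GR, both glutathione reductases, could be tested. GR1 had 5036 and 6244 in phyA, 3964 and 4769 in phyB, 5126 and 8046 in phyAphyB, and 6442 and 9602 in WT. Its phyA and phyB arrays were lower than both WT arrays, and phyAphyB overlapped them. GR had 5999 and 6921 in phyA, 5989 and 3193 in phyB, 5244 and 7937 in phyAphyB, and 4823 and 5068 in WT. Unlike GR1, its phyA and phyAphyB arrays were higher than both WT arrays, and phyB overlapped them.

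Groups of 2 arrays that do not overlap are common on this array set, so their counts were read against all probe sets. In phyA, 13 of 44 members had both arrays above both WT arrays (18% of all probe sets) and 10 had both below (17.6%). In phyB, 9 were above (14.7%) and 9 below (18.2%), and in phyAphyB 14 were above (17%) and 6 below (13.3%). All 6 mutant arrays exceeded both WT arrays for 5 members (6.02%), CYP84A4, GSTU25, UGT71B1, UGT72E2 and UGT84A3. They were all lower for 3 members (5.85%), CYP71B34, CYP71B6 and GSTU27. As shares of 44, 5 members are 11.4% and 3 are 6.82%.

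The design also allowed each allele to be tested over 4 arrays with it against 4 without. For phyA-211 no member was called, beside 0.0366% of all probe sets, and the smallest adjusted p of a member by limma was 0.888. At an unadjusted p under 0.05, 3 of 44 members passed (3.15% of all probe sets), and 31 of 44 were positive (56.1%). Past 1 log2 unit were 2 members (1.25%), UGT85A4 and UGT73B4. For UGT73B4 the difference was 1.01 (SE 0.72), and leaving out 1 array at a time gave 0.14 to 1.87. The value of 0.14 came without phyB replicate 1, where the intensity of UGT73B4 was 22, below the pseudocount. The positive share of members was 70.5% with the deposited scaling, 52.3% with each array centred on its median and 56.8% after quantile normalization. Members with the smallest p were UGT85A4 with a difference of 1.18 (SE 0.45), CYP71B35 with -0.83 (SE 0.34) and GSTU27 with -0.72 (SE 0.30). For UGT85A4 the settings tried gave 0.40 to 1.70, and for GSTU27 -1.04 to -0.38. No member had all 4 phyA-211 arrays above or below the other 4 (1.32% and 0.857% of all probe sets).

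For phyB-9 no member was called, beside 0.0147% of all probe sets. At an unadjusted p under 0.05, 2 of 44 members passed (2.22%), 25 were positive (49.6%), and 0 exceeded 1 log2 unit (0.638%). UGT84A3 had the smallest p, with a difference of 0.98 (SE 0.32), and GSTU20 had 0.75 (SE 0.33). UGT84A3 and UGT84A4 were the 2 members with all 4 phyB-9 arrays above the 4 others (0.821% of all probe sets), and no member had them all below (0.755%). This pair counts as 2 probe sets of neighbouring genes and not as 2 independent observations.

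The interaction is the phyAphyB difference minus the phyA and phyB differences, all against WT. No member was called, beside 0% of all probe sets, and 1 of 44 members passed an unadjusted p under 0.05 (3.3%). That member was UGT76B1, with an interaction of 1.79 (SE 0.59), where both single mutants lay below both WT arrays and the double mutant spanned them. Over all settings tried its interaction ranged between 1.25 (without phyAphyB replicate 2) and 2.33 (without phyAphyB replicate 1). UGT72E1 had -2.27 (SE 1.07) and CYP84A4 had -1.13 (SE 0.54), and in both genes the double mutant's mean was no higher than either single mutant's. Of the 44 members, 22 had a positive interaction (58% of all probe sets) and 8 exceeded 1 log2 unit in either direction (11.5%). The interaction of UGT72E1 without each array in turn and in all other settings ranged between -3.74 and -0.80.

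Many members differed between the replicate numbers. Replicate 2 exceeded replicate 1 in all 4 genotypes for 14 of 44 members (31.8%), against 20.5% of all probe sets tested, and replicate 1 exceeded replicate 2 for UGT80B1 alone, against 11.5%. The 14 included UGT73B1, UGT73B4, UGT74B1, UGT74D1, UGT76C1, UGT76C2, GSTL3, a lambda-class GST that binds flavonols, and GSTF4 of the phi class. The UGT73B enzymes are known from responses to pathogens and reactive oxygen. UGT73B1 (AT4G34138) stood at 420 and 1227 in phyA, 515 and 939 in phyB, 360 and 1077 in phyAphyB, and 379 and 741 in WT. UGT73B4 (AT2G15490) stood at 273 and 1012 in phyA, 22 and 639 in phyB, 481 and 1255 in phyAphyB, and 479 and 594 in WT. For both genes all 4 replicate 1 arrays were lower than all 4 replicate 2 arrays, whatever the genotype. UGT73B5, too dim for the test, had 194 and 629 in phyA, 166 and 225 in phyB, 220 and 728 in phyAphyB, and 203 and 509 in WT.

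**Figure D4:**
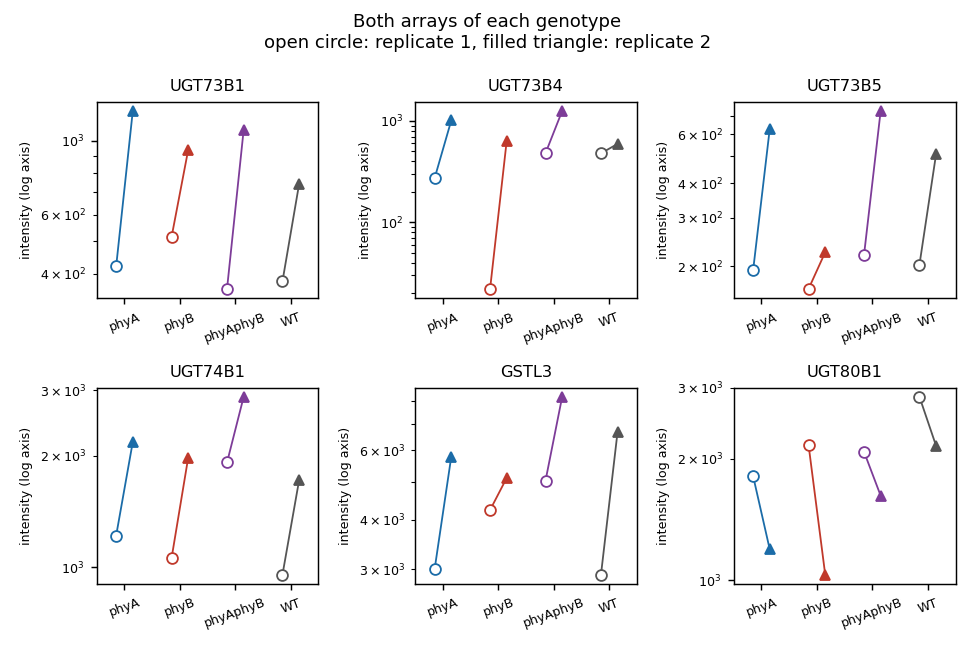
Deposited intensity (log axis) of 6 members on both arrays of each genotype, joined by a line, with the 3 mutants left of WT. Replicate 2 is above replicate 1 in all 4 genotypes for UGT73B1, UGT73B4, UGT73B5, UGT74B1 and GSTL3, and below it for UGT80B1.

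GSTs of the lambda and phi classes had the same order. GSTL3 (AT5G02790) stood at 3006 and 5778 in phyA, 4237 and 5106 in phyB, 5026 and 8182 in phyAphyB, and 2908 and 6683 in WT. GSTF4 (AT1G02950) stood at 146 and 897 in phyA, 519 and 762 in phyB, 480 and 1164 in phyAphyB, and 596 and 919 in WT. Here too all 4 replicate 1 arrays were lower than all 4 replicate 2 arrays. The median gap between both arrays of a genotype over the 44 members was 0.38 log2 units in phyA, 0.50 in phyB, 0.57 in phyAphyB and 0.38 in WT, beside 0.44 to 0.49 over all probe sets tested. Gaps over 1 log2 unit were seen in 5, 6, 8 and 9 of 44 members in that order, so WT had the most. The shares over all probe sets tested were 15.5%, 14.3%, 14.2% and 18.3%. The largest gap of a member was 2.94 in WT and 3.47 in phyB.

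Many of the genes lie in tandem. In the order of the TAIR10.1 gene table, 38 of the 83 members formed 16 runs of neighbours. Both genes were tested for 10 neighbouring pairs, and their log2 values over the 8 arrays had a median Pearson correlation of 0.42 (range -0.25 to 0.95). The median over all 946 pairs of tested members was 0.11. The correlations are descriptions over arrays that share scaling, genotype and replicate number.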

How the data were processed

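Total RNA was profiled on 8 ATH1 arrays. The authors deposited 1 linear intensity per probe set and array for 22810 probe sets, 64 of them controls, and no source used here names the summarising software. The number of arrays limits the precision. Genotypes came from the labels, and 1 phyA title without a number was called replicate 1. Probe sets were named through the platform annotation (13513 with 1 gene, 503 with several, 8730 not listed, 13436 matched by Entrez number to TAIR10.1); all 83 members matched. No coordinates or sequences are printed.

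Intensities were used as deposited, since 2% trimmed means differed by under 5%. The pseudocount was the 10th percentile of all values. limma 3.58.1 (R 4.3.3) modelled all 8 arrays with 1 mean for each genotype, using lmFit, contrasts.fit and eBayes with an intensity trend, two-sided, with Benjamini-Hochberg adjustment over 13647 probe sets and a threshold of 0.05. Residual degrees of freedom were 4 and the prior 5.87. Alternatives were other pseudocounts (1 and 200), filters, normalizations, no trend, fewer arrays and a replicate block.

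Members and lists were chosen with earlier results of these data known. Named members were, per family, the 4 with the smallest p in each mutant against WT, the 2 with the smallest p in each other contrast, those with a written role, the 3 with the widest range, and of dim members the 3 brightest; not all are described.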

Additional observations from a re-analysis of the deposited data

How the results depend on the processing

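Over 18 alternative settings, 64 differences of single members were followed: 54 chosen by the naming rule and 10 that the text describes, added after seeing the data. Of 1074 pairs of a difference and a setting, 1058 kept their direction and their side of the threshold. No followed difference passed in the main fit, and many pairs could not turn. Leaving out an array that a comparison does not use, or fitting without the trend, leaves the difference as it was. The count of 1058 is therefore no measure of stability. Leaving out WT replicate 2 left WT replicate 1, the array with the highest GAPDH ratio, to stand alone for WT against the threshold. Without WT replicate 2, 4 passed it (UGT72E1 in all 3 mutants, UGT85A4 in phyA). The direction turned in 12 pairs, without an array or without both arrays of a high GAPDH ratio: GSTL3 (-0.059 to 1.13) and UGT72E1 (-0.026 to 2.91) in phyAphyB; UGT74B1 in phyA (-0.072 to 0.75) and phyB (-0.27 to 0.61, and -0.68 without both); GSTU20 (-0.0048 to 1.11) and UGT84A4 (-0.0004 to 0.20) in phyA. Leaving out 1 array moved 43 of the 64 by over 1.5 times, and without WT replicate 1 alone it was 25 of the 46 against WT. Leaving out 1 array at a time gave 0 to 2 members called in phyA, 0 to 1 in phyB and 0 to 1 in phyAphyB, all without WT replicate 2, when 93, 70 and 30 probe sets of the whole array were called. Members' medians then ranged between -0.07 and 0.24 in phyA, -0.16 and 0.25 in phyB, -0.021 and 0.51 in phyAphyB, 0.04 and 0.28 for phyA-211, -0.05 and 0.17 for phyB-9 and -0.14 and 0.15 for the interaction. Without both high-GAPDH arrays the medians were -0.20 in phyB, -0.021 in phyAphyB and 0.30 for the interaction. With each array centred on its median, the interaction's median over all probe sets was -0.01 in place of 0.12. The replicate block over the 6 numbered arrays called 0 members in phyB and 0 in phyAphyB, with medians of 0.09 and 0.24, and 6 and 7 members at an unadjusted p under 0.05, against 4 and 4 without it. Deviations of same-numbered arrays correlated at 0.15 to 0.64 in 5 genotype pairs and at -0.06 between phyB and WT, and no label says what a number marks, so the unblocked values are the ones reported. Positive counts of members with an alternative filter covered other numbers of probe sets and are not set beside the main counts. The cause of these shifts was not tested, and 2 arrays per genotype limit every value.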

Other observations

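Of 9 probe sets outside the naming rule that carry related symbols, the one shared by UGT73B2 and UGT73B3, relatives of UGT73B1, stood at 2854 and 7505 in phyA, 3644 and 5037 in phyB, 3450 and 7723 in phyAphyB, and 4930 and 6858 in WT. Replicate 2 exceeded replicate 1 in all 4 genotypes there too. The probe set shared by CYP71B19 and CYP71B20 stood at 1510 and 1445 in phyA, 1162 and 1116 in phyB, 1680 and 2066 in phyAphyB, and 1463 and 1552 in WT. The one shared by UGT71D1 and a neighbour stood at 927 and 1840 in phyA, 1098 and 1638 in phyB, 1674 and 1586 in phyAphyB, and 3026 and 1733 in WT. The probe set shared by UGT89B1 and AT1G73885 had 3800 and 2955 in phyA and 3440 and 4165 in phyB. It had 3918 and 3508 in phyAphyB, and 2715 and 2670 in WT. Every mutant array was thus higher than both WT arrays there. None of these was called by limma, with adjusted p of 0.786 to 0.997.

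The seed reserve gene PAP85 had 4426 and 8835 in phyA, 12256 and 24718 in phyB, 14111 and 20201 in phyAphyB, and 4743 and 5802 in WT. The 4 arrays carrying phyB-9 were higher than the 4 without it, the order also seen for UGT84A3 and UGT84A4. No relation between them was tested. LEA4-5, the other seed reserve marker with a named probe set, lacked that order. It had 3184 and 3556 in phyA, 2759 and 2982 in phyB, 2544 and 1691 in phyAphyB, and 2859 and 2383 in WT.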
